A study of Rattus norvegicus with 24 samples.

Results

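The myogenic transcription factors are 7 nuclear regulators of skeletal muscle, Pax3, Pax7, Myf5, Myod1, Myog, Myf6 and Mef2c, taken by gene symbol from the 32883 genes of the normalized gene count table. Their Ensembl identifiers are, in this order, ENSRNOG00000013670, ENSRNOG00000018739, ENSRNOG00000004768, ENSRNOG00000011306, ENSRNOG00000030743, ENSRNOG00000004878 and ENSRNOG00000033134. Each symbol occurred once, and all 7 passed the filter on low values that left 16287 genes for testing. They were described in 24 urethral samples, 4 in each of 6 groups. All samples came from female rats after simulated vaginal delivery (SVD), a crush of the pudendal nerve combined with distension of the vagina. Young adult virgin Sprague-Dawley rats were used in every group. Soon after the injury, the rats received saline, MABsallo or MABsallo-VEGF into the aorta, and urethras were collected 3d or 7d later. Mesoangioblasts (MABs) are vessel-associated progenitors, here grown from the hind-limb muscle of a donor rat and labelled with a lentiviral vector for eGFP and firefly luciferase. MABsallo-VEGF carried in addition a vector that overexpresses VEGF165 with a truncated CD34, and their genotype is labelled VEGF OE, that of MABsallo WT. Of the 4 MABsallo-VEGF samples of 7d, replicates 6 and 7 have the word recovery in their titles. Donor and host are both rats, so the counts of rat genes used here cannot tell transcripts of injected cells from those of resident cells. The labels give every sample its own identifier without stating that each is a separate rat, so p-values measure the spread between these samples.

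In skeletal muscle, the paired-box factors Pax3 and Pax7 keep progenitors and satellite cells, the stem cells of the fibre, in the myogenic lineage. They act upstream of the basic helix-loop-helix myogenic regulatory factors (MRFs). Among these, Myf5 and Myod1 commit cells to the lineage, Myog drives their fusion into fibres, and Myf6 (also called MRF4) is found mostly in fibres. MRFs pair with E proteins to bind a short element called the E-box, and the MADS-box factor Mef2c acts beside them on muscle genes. Mef2c is also used in heart, vessels, neurons and immune cells. In the urethra, skeletal muscle forms the external sphincter around a layer of smooth muscle.

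RefSeq promoters, from 250 bases before to 50 after the annotated start, were at hand for 5 of the 7 genes in the rat build GRCr8. The Pax3, Pax7 and Myog promoters are shown since these genes gave the largest differences among the members with a promoter. Capitals mark matches on either strand to the E-box CANNTG, the MEF2 motif YTAWWWWTAR and the MEF3 motif TCAGGTT. In the MEF2 motif Y is C or T, W is A or T, and R is A or G. The matches did not overlap each other in the promoters shown. They lie at chr9:87112482-87112781 (minus strand), chr5:157381072-157381371 (minus strand) and chr13:48297226-48297525 (plus strand).
Pax3: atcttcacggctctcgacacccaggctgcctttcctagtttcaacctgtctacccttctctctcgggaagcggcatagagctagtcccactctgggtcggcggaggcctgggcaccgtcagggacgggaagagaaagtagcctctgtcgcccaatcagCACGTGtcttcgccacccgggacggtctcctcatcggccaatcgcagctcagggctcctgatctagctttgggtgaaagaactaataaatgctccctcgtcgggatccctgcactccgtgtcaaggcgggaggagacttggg
Pax7: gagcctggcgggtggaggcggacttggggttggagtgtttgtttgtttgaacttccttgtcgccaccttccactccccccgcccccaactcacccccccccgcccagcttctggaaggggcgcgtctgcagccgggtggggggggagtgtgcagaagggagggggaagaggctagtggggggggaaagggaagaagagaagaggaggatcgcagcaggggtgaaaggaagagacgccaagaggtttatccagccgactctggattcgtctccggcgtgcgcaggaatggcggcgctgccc
Myog: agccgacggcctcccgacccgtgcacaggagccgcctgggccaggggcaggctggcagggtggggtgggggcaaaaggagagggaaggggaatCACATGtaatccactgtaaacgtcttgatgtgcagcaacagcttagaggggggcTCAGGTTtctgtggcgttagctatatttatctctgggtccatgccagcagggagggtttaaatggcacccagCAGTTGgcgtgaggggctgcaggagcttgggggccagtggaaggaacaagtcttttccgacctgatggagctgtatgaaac

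The Myog promoter held 2 E-boxes, CACATG at -157 and CAGTTG at -31 from the start, and a MEF3 motif at -103. It also held ctatatttat, which departs from the MEF2 motif only in its last base and was not counted as a match. Pax3 had a single E-box, CACGTG at -92, and the window of Pax7 had no match. In the Myf6 promoter a MEF2 motif began at -76 and overlapped a TATAAA at -71, with an E-box CATCTG at -29. Myf5 had a TATAAA at 23 after its start. Of 33469 rat promoters of this length, 72.1% held CANNTG, 3.29% the MEF2 motif, 4.03% TCAGGTT and 14.2% TATAAA, so an E-box is common and the others are not. The G and C content was 64.67% for Pax7, 59.33% for Pax3, 58.67% for Myog, 47.33% for Myf5 and 44% for Myf6, against a median of 51.7% over all promoters. Pax3 had 19 CpG and Pax7 17, where the median promoter had 7. Myf5 and Myf6 are neighbours on chromosome 7, on the same strand, and their starts lie 8675 bases apart. A match is a run of letters, and binding was not measured.

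Libraries had 2170695 to 10166052 reads on genes, and 1 read was worth 1.67 to 9.23 normalized counts. At 3d the reads were fewest in MABsallo (2170695 to 4491900), then MABsallo-VEGF (3042531 to 4261098), and saline had 4851797 to 5249467. Markers of mature striated fibres and of smooth muscle were present. At most 1 of 18 fibre genes and 0 of 8 smooth muscle genes were at 0 in any library. Such genes mark muscle, so they cannot tell a urethra from other tissue with both kinds of muscle. Over all genes tested, 2 libraries went against their labels. Saline replicate 6 of 3d had a mean Pearson correlation of 0.890 with the other saline samples and of 0.906 with MABsallo-VEGF. MABsallo-VEGF replicate 4 of 3d had 0.872 within its group and 0.919 with saline. Saline replicate 8 of 3d was the least like the treated groups (0.768 with MABsallo). MABsallo replicate 4 of 3d was about as close to saline (0.888) as to its own group (0.886). It was closest to the other treated group, MABsallo-VEGF (0.901), and was kept. Results at 3d are therefore given with 24 samples and with the 22 left when saline replicate 6 and MABsallo-VEGF replicate 4 are removed. As these libraries resemble the opposite groups, their removal widens the difference between treated and saline samples across the whole table.

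Pax3 was the rarest member, with 48 reads over all libraries and at most 10 in 1 library. At 3d after saline its normalized gene counts were 0, 0, 3.57 and 3.52 in replicates 6, 8, 9 and 10. In MABsallo they were 7.10, 49.2, 64.6 and 27.1, and in MABsallo-VEGF 54.1, 25, 10.1 and 8.91. Every cell-treated sample of 3d was thus above every saline sample, although the lowest of them rested on 1 or 2 reads. MABsallo replicate 1 and saline replicates 9 and 10 had 1 read each. Their normalized counts differ because a read was worth more in the MABsallo library. At 7d, saline had 0 in all 4 samples. Of the cell-treated samples of 7d, MABsallo had 6.62 in 1 sample and 0 in the others, and MABsallo-VEGF had 7.26, 0, 3.10 and 6.30. All 3 groups of 7d and saline at 3d had 3 reads or fewer in every sample, the limit of detection used here, and no fold between them is given. That limit covers counting error only.

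Pax7 had 74 reads in all. At 3d after saline it had 20.7, 0, 3.57 and 7.04 normalized counts in replicates 6, 8, 9 and 10. In MABsallo the values were 49.7, 104, 18.5 and 27.1. In MABsallo-VEGF they were 37.8, 25, 80.7 and 4.45. The overlap between treated and saline samples came from the same libraries that went against their labels, saline replicate 6 and MABsallo-VEGF replicate 4, together with MABsallo replicate 3, which lay just below saline replicate 6. At 7d the highest value was 6.76, in saline replicate 1, and 8 of the 12 samples were at 0.

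Myf5 gave 241 reads and a level that did not separate the groups. Its mean normalized gene count at 3d was 36.6 ± 18.1 in saline (SD, n = 4), 61.1 ± 49.9 in MABsallo and 37.8 ± 9.93 in MABsallo-VEGF. At 7d it was 37.5 ± 36.5, 40.6 ± 31.0 and 21.2 ± 19.9. MABsallo replicate 2 of 3d had the highest value, 131, and MABsallo-VEGF replicate 12 of 7d the lowest, 3.15.

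Myod1, which like Myf5 commits cells to muscle, had 186, 827, 161 and 303 normalized counts in saline at 3d. MABsallo at 3d had 269.8, 569, 831 and 1188, and MABsallo-VEGF 579, 917, 247 and 338. Saline replicate 8 reached the upper values of the treated groups, so that the groups overlapped. At 7d, saline was narrow, between 207 and 305, and MABsallo was lower on average, with 74.3, 288, 212 and 58.1. MABsallo-VEGF at 7d had 131, 254, 776 and 192, of which replicate 11 stood above the rest.

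Myog had 492, 1909, 450.3 and 1721 normalized counts in saline at 3d, a pair of low and a pair of high samples. In MABsallo at 3d it had 1605, 2484, 2668 and 2881. In MABsallo-VEGF at 3d it had 2239, 5084, 2003 and 1950.2. All MABsallo-VEGF samples were above all saline samples, and MABsallo replicate 1 fell within the saline range. At 7d the means were 1346 ± 431 in saline (SD, n = 4), 643 ± 434 in MABsallo and 903 ± 401 in MABsallo-VEGF.

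Myf6 followed a similar split among the saline samples of 3d, with 134 and 172 in replicates 6 and 9 and 682 and 845 in replicates 8 and 10. Its mean at 3d was 458 ± 359 in saline, 798 ± 365 in MABsallo and 518 ± 151 in MABsallo-VEGF (SD, n = 4). Saline had its higher mean at 7d, 862 ± 339, against 485 ± 283 in MABsallo and 449.7 ± 223 in MABsallo-VEGF. All these ranges overlapped.

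Mef2c had the most reads, 42240. In saline at 3d its normalized counts were 7159, 3406, 3853 and 8843. In MABsallo they were 8740.2, 12244, 15371 and 17614, and in MABsallo-VEGF 13523, 13052, 11169.6 and 7378. MABsallo replicate 1 lay just below saline replicate 10, and MABsallo-VEGF replicate 4 lay within the saline range. At 7d the means were 4239.6 ± 2450.4 in saline, 4984 ± 2383 in MABsallo and 5454 ± 809 in MABsallo-VEGF (SD, n = 4).

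**Figure D1:**
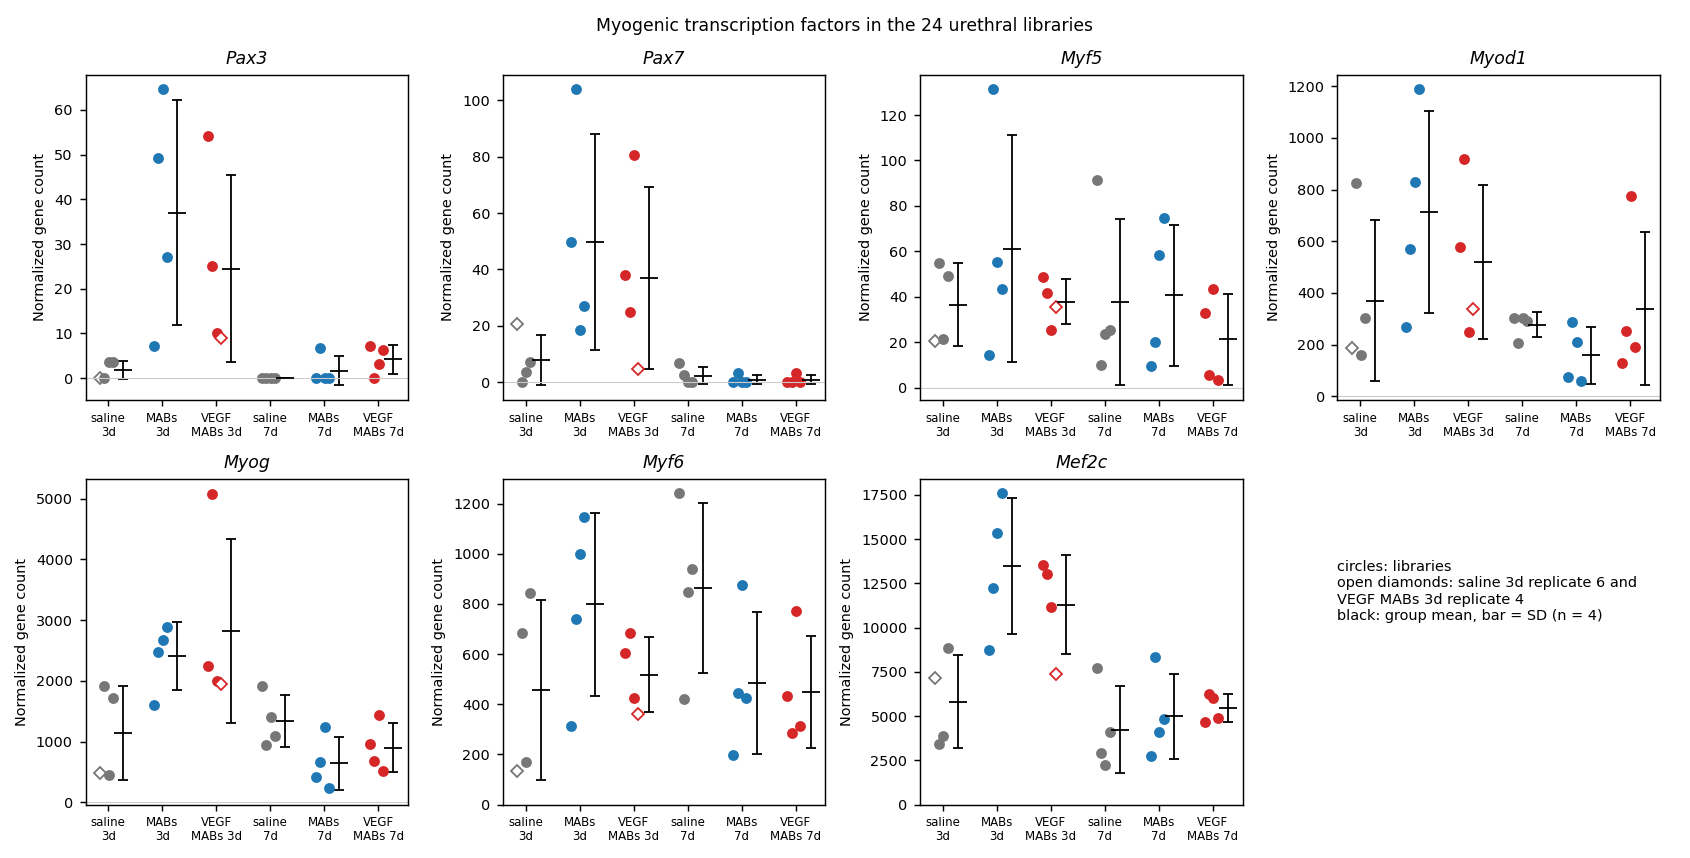
Normalized gene count (vertical axis, linear) of the 7 factors in each sample of the 6 groups (horizontal axis), with black marks for the group mean and SD (n = 4) and open diamonds for the libraries that went against their labels (MABs stands for MABsallo and VEGF MABs for MABsallo-VEGF in all plots). Pax3 and Pax7 are near 0 at 7d in all groups, and the highest Mef2c samples, 17614 and 15371, are MABsallo at 3d.

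MABsallo against saline at 3d asks what the injected cells changed soon after injury. With all 24 samples, Pax3, Pax7 and Mef2c were higher in MABsallo and the other 4 factors did not pass the test. To pass, the adjusted p had to be under 0.05 with a change of more than 1 on the log2 scale, by limma on log2(normalized gene count + 1). Of all genes tested, 9.40% passed in the same direction, so the 3 of 7 members are read against that share. On the recovered reads DESeq2 called 2 members, where it called 6.98% of genes as higher, and edgeR called 1, where it called 5.29%. Of all calls, 76.7% were higher, against 64.2% with edgeR, 56.3% with quantile normalization and 52.1% with libraries scaled to equal totals. The study had itself shown Pax3 and Pax7 from these samples, so their direction is not independent evidence. A bulk sample does not tell more cells of a type from more RNA per cell.

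Pax3 had a fitted log2 fold change of 3.79 (SE 0.90, adjusted p = 0.0120). As saline was at the limit of detection, the measured difference is at least 3.41-fold, setting saline to 3 reads per library. Pax7 had 2.96 (SE 0.99, adjusted p = 0.0455) and Mef2c 1.28 (SE 0.37, adjusted p = 0.0241), a mean of 13492 against 5815 normalized counts. Pax3 was the member whose groups did not overlap, which held for 9.44% of genes in this direction. In reads they met, as MABsallo replicate 1 and saline replicates 9 and 10 had 1 read each. The Pax7 call was the weakest: it passed in 11 of the 24 fits that left out 1 library, where Pax3 passed in 23 and Mef2c in 20. Under 11 alternative settings with other processing or samples, Pax7 passed in 5 (adjusted p from 0.00228 to 0.115), Mef2c in 8 and Pax3 in 10. Without saline replicate 8, none of the 7 passed, with an adjusted p of 0.0570 for Pax3. That library had the fewest genes with a read (14183). Mitochondrial reads made up 17.2% of it, against 11.1% to 11.7% in the other saline samples of 3d and 17.6% in MABsallo replicate 4. The part of these in the calls was not tested. Without saline replicate 9 or MABsallo replicate 3, Pax3 passed alone.

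The other 4 factors did not pass, with fitted log2 fold changes of 1.35 for Myog (95% interval 0.35 to 2.34, adjusted p = 0.0598), 1.08 for Myod1 (-0.16 to 2.32, adjusted p = 0.220) and 1.07 for Myf6 (-0.05 to 2.20, adjusted p = 0.178). Myf5 had 0.47 with the widest interval of these, -1.26 to 2.20. Each of these intervals includes a log2 fold change of 1. With 22 samples the same 3 members passed, where 13.8% of genes did. Pax7 then had 3.64 (adjusted p = 0.00871), at least 4.52-fold above the limit in saline. Its groups no longer overlapped, as held for 17.8% of genes in this direction. In reads, MABsallo replicate 3 and saline replicate 10 were level, with 2 each. Pax3 had 3.42 (adjusted p = 0.0140) and Mef2c 1.42 (adjusted p = 0.0125), while Myog had 1.04 (adjusted p = 0.148). Without saline replicate 8 as well, 0 members passed in limma.

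Several library properties moved with this comparison. Small noncoding RNAs made up 0.0260% to 0.153% of reads in MABsallo at 3d and 0.0143% to 0.0249% in saline, and depth was lower in MABsallo. The summed level of the 8 macrophage genes was 1328 to 11713 in MABsallo and 10857 to 20425 in saline, and that of the 18 fibre genes 171922 to 649630 and 80863 to 333831. Of the 6 B cell genes, 4 to 6 were at 0 in saline and 4 or 5 in MABsallo. The part of the noncoding share and of cell makeup in the result was not tested. With reads thinned to 2170695 in every library, Pax3 (1.79, adjusted p = 0.0215), Pax7 (2.53, adjusted p = 0.00228) and Mef2c (1.31, adjusted p = 0.0202) were the members that passed. The thinning was a single random draw, and how the calls vary between draws was not tested. Before it, Pax3 had at most 9 reads in a MABsallo library of 3d.

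MABsallo-VEGF against saline at 3d shares its saline samples with the comparison above. None of the 7 factors passed with 24 samples in limma, and few genes did, 0.0307% in this direction, while 17.9% had an unadjusted p below 0.05. At that unadjusted level 4 members were higher, Pax3, Pax7, Myog and Mef2c. DESeq2 and edgeR called 0 members, and 1.81% and 0.00614% of genes as higher. Pax3 had 3.22 (SE 0.90, adjusted p = 0.0899), with a mean at least 2.26-fold above the limit in saline. That mean rested mostly on replicate 1 (10 reads), as replicates 2, 3 and 4 had 3, 2 and 2 reads, within the limit used here. Pax7 had 2.29 (adjusted p = 0.222), Myog 1.48 (adjusted p = 0.128) and Mef2c 1.03 (adjusted p = 0.146). The groups of Pax3 and Myog did not overlap, against 2.36% of genes in this direction. Myod1 had 0.64, Myf6 0.56 and Myf5 0.14.

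With 22 samples, Pax3 (3.20, adjusted p = 0.0374), Pax7 (3.71, adjusted p = 0.0150) and Mef2c (1.36, adjusted p = 0.0297) were higher in MABsallo-VEGF, as were 11.4% of all genes. Pax3, Pax7, Myog and Mef2c did not overlap between the groups, where 21.3% of genes did not. In the 3 MABsallo-VEGF libraries kept, depth was lower than in every saline library, and small noncoding RNAs made up 0.0284% to 0.0586% of reads, more than in any saline library. With all 24 samples, the summed macrophage genes were 3715 to 17952 in MABsallo-VEGF and 10857 to 20425 in saline, which overlapped. These ranges include the libraries left out of the 22. The part of these in the result was not tested. Saline replicate 8 decided these calls too, since without it 0 of 7 passed. Leaving out 1 of the 3 remaining MABsallo-VEGF samples left 1 member, Pax7 without replicate 1 or 2 and Pax3 without replicate 3.

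**Figure D2:**
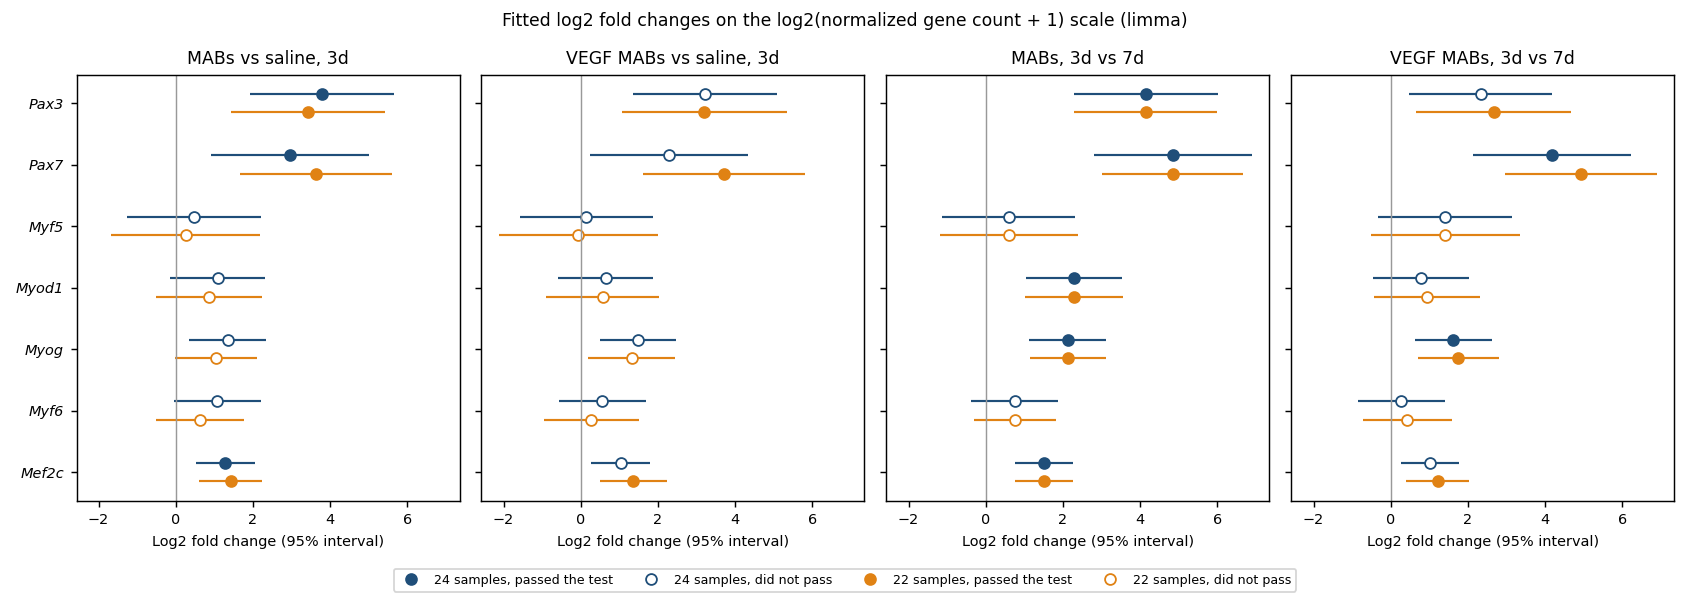
Fitted log2 fold change (horizontal axis) with its 95% interval for the 7 factors in 4 comparisons, with 24 samples in blue and 22 in orange, and filled circles where the test was passed. Pax3, Pax7 and Mef2c are filled for MABsallo against saline in both fits, and for MABsallo-VEGF against saline with 22 samples, while the intervals of Myf5 span 0 in all 4 panels.

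The direct comparison of MABsallo-VEGF with MABsallo at 3d asks what VEGF added. No factor passed in limma, DESeq2 or edgeR, and 0 had an unadjusted p below 0.05, where 6.13% of genes did and 0.00614% passed as lower. Myog differed by 0.13 (95% interval -0.86 to 1.13) and Mef2c by -0.25 (-1.01 to 0.51). Pax3 differed by -0.56 (-2.42 to 1.30) and Pax7 by -0.67 (-2.72 to 1.37). For the paired-box genes the intervals are wide enough to hold a change of more than 2 on the log2 scale, so these values do not show that the groups were alike.

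MABsallo at 3d against MABsallo at 7d asks how the factors differed between the days, and 5 of 7 were higher at 3d. Of all genes, 17.0% passed in this direction, which was 73.7% of all calls, against 59.2% with equal totals and 54.5% with quantile normalization. Pax7 had 4.84 (SE 0.99, adjusted p = 0.000928), and Pax3 had 4.15 (SE 0.90, adjusted p = 0.00151). As both were at the limit at 7d, the bounds are at least 5.43-fold for Pax7 and 4.04-fold for Pax3. Myod1 had 2.28 (SE 0.60, adjusted p = 0.00596), a mean of 714 against 158 normalized counts. Myog had 2.12 (SE 0.48, adjusted p = 0.00208), a mean of 2409 against 643, and Mef2c 1.51 (SE 0.37, adjusted p = 0.00355). The groups of Pax3, Pax7, Myog and Mef2c did not overlap, where 17.7% of genes did not in this direction. For Pax3 this came from the scaling of reads, as replicate 1 of 3d had 1 read and replicate 9 of 7d had 2. All 5 passed in each of the 24 fits without 1 library, in DESeq2 and in edgeR, which called 13.8% and 15.9% of genes as higher. Myf6 (0.75, adjusted p = 0.315) and Myf5 (0.60, adjusted p = 0.629) did not pass.

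Other measures moved with the day in MABsallo. Depth was 2170695 to 4491900 reads at 3d and 5478333 to 10166052 at 7d, and small noncoding RNAs made up 0.0260% to 0.153% and 0.0125% to 0.0205% of reads, with no overlap in either. The summed level of the 8 smooth muscle genes was 85180.2 to 129749 at 3d and 180551 to 190780 at 7d, also without overlap. Of these genes Acta2 (-1.94), the smooth muscle actin, and Tagln (-1.32) were lower at 3d, while Synpo2 was higher (4.03). The summed macrophage genes overlapped (1328 to 11713 and 6361 to 21215), with C1qb (-2.61) and C1qa (-1.41) lower at 3d, as were Emcn (-1.37) and Cldn5 (-1.11) of the endothelial genes. Of the 16287 genes tested, 986 passed as lower at 3d. With thinned reads, the same 5 factors passed. The part of the noncoding share and of cell makeup was not tested.

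MABsallo-VEGF at 3d against 7d gave 2 of 7 with 24 samples, where 13.1% of genes passed as higher at 3d, 85.4% of all calls (74.8% with equal totals, 68.5% with quantile normalization). Pax7 had 4.19 (SE 0.99, adjusted p = 0.00456), at least 3.87-fold, and Myog 1.62 (SE 0.48, adjusted p = 0.0200). Mef2c had 1.02 (adjusted p = 0.0516) and Pax3 2.33 (adjusted p = 0.0701), with a Pax3 mean at least 2.57-fold above the limit at 7d. That mean rested mostly on replicate 1 of 3d (10 reads), as replicates 2, 3 and 4 had 3, 2 and 2. Pax3, Pax7, Myog and Mef2c did not overlap between the days, against 13.8% of genes. In reads, the lowest samples of 3d only equalled the highest of 7d for Pax3 (2 reads) and Pax7 (1 read). Neither Mef2c nor Pax3 passed with 24 samples. With 22 samples Pax3, Pax7, Myog and Mef2c passed, with 2.66 (adjusted p = 0.0451) for Pax3 and 1.21 (adjusted p = 0.0257) for Mef2c. Of all genes, 16.6% did. Mef2c passed in 8 of the 11 alternative settings and Pax3 in 3, while Pax7 and Myog passed in all 11. Myod1, called between the days in MABsallo, had 0.79 here (95% interval -0.45 to 2.03, adjusted p = 0.378). The call of Myog was lost without MABsallo-VEGF replicate 2 of 3d or without replicate 7 or 12 of 7d. Depth was lower at 3d here too (3042531 to 4261098 and 5415577 to 6288841 reads), whereas the noncoding share (0.0173% to 0.0586% and 0.0140% to 0.0187%) and the summed smooth muscle genes (56115.6 to 114387 and 107874 to 261198) overlapped between the days, and their part was not tested.

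Saline at 3d against saline at 7d serves as the background of these differences between days. None of the 7 passed in limma, DESeq2 or edgeR, with 1 at an unadjusted p below 0.05 (18.8% of genes), while 2.59% of all genes passed as higher and 0.602% as lower at 3d. That member was Myf6, with -1.24 (95% interval -2.36 to -0.11, adjusted p = 0.214). Mef2c had 0.51 (-0.25 to 1.26), Myog -0.49 (-1.48 to 0.51) and Myod1 0.10 (-1.13 to 1.34).

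Whether the difference from saline changed between 3d and 7d was tested with an interaction term. In limma, 0 of 7 passed for MABsallo, as did 0 of all genes, while 13.6% of genes and 5 members had an unadjusted p below 0.05. Myog had the lowest adjusted p, with an interaction of 2.61 (SE 0.68, adjusted p = 0.189) and 2.18 (SE 0.85, adjusted p = 0.275) for Myod1. For MABsallo-VEGF, 0 members passed and 2 had an unadjusted p below 0.05, as did 8.23% of genes, and of these members Myog had 2.11 (SE 0.68, adjusted p = 0.507). DESeq2 and edgeR called 0 members in either. With 22 samples, 3.02% and 3.16% of all genes passed as higher, and still 0 members.

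At 7d no factor differed between groups in limma, DESeq2 or edgeR, and limma called 0 genes in any of the 3 comparisons. In MABsallo against saline, 6.23% of genes and 1 member had an unadjusted p below 0.05. That was Myog, lower in MABsallo by -1.26 (95% interval -2.26 to -0.27, adjusted p = 0.732). Myod1 had -1.09 (-2.33 to 0.14), Myf6 -0.92 (-2.04 to 0.21) and Mef2c 0.28 (-0.48 to 1.04). In MABsallo-VEGF against saline, where 6.34% of genes had an unadjusted p below 0.05, Myf6 had -0.95 (-2.07 to 0.17), Myog -0.63 (-1.62 to 0.37) and Mef2c 0.52 (-0.24 to 1.27). The member with an unadjusted p below 0.05 there was Pax3, for which both groups were at the limit and no fold is given. Between MABsallo-VEGF and MABsallo, 0 members and 2.78% of genes had an unadjusted p below 0.05, with 0.64 for Myog (-0.36 to 1.63) and 1.05 for Myod1 (-0.19 to 2.29).

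**Figure D3:**
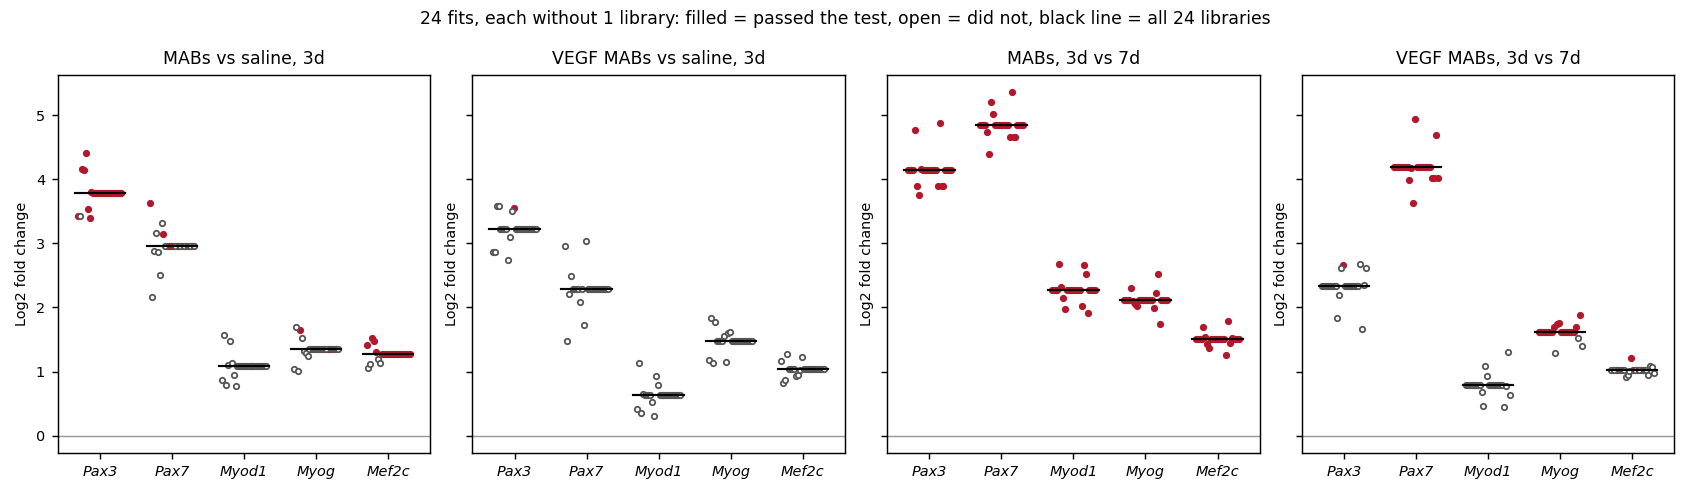
Log2 fold change (vertical axis) of 5 factors in 4 comparisons when each of the 24 libraries was left out in turn, filled where the test was passed, with black lines for all libraries, where many points overlap. Every point is filled between 3d and 7d in MABsallo, while Pax7 against saline is filled in 11 of 24 fits for MABsallo and in 0 for MABsallo-VEGF.

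Partners and other regulators of the factors were given by lists, in MABsallo against saline at 3d with 24 samples. The median log2 fold change was 0.07 over all genes tested and 1.28 over the 7 factors. Of the 16287 genes tested, 9.40% passed as higher and 466 genes passed as lower. Among 3 E proteins, Tcf12 was higher (2.02, SE 0.49, adjusted p = 0.0127) and Tcf3 and Tcf4 did not pass, with a median of 0.10. Mef2a, of 3 other MEF2 genes, was higher too (1.14, adjusted p = 0.0333), and their median was 0.67 (0.91 with genes at the limit set to their bounds).

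Of 12 satellite cell genes, the growth factor receptor Met was higher (3.54, SE 0.98, adjusted p = 0.0205) and Spry1, an inhibitor of growth factor signalling, lower (-1.25, SE 0.38, adjusted p = 0.0294). The median of this list was -0.18 and 4 of its 12 genes had a positive value. Among 14 inhibitors of MRFs, such as the Id genes, 12 were tested and 0 passed, with a median of 0.20. Of 9 other embryonic muscle regulators, Meox1 was lower (-2.15, SE 0.58, adjusted p = 0.0193), with a median of 0.14. The paired-box genes other than Pax3 and Pax7 were scarcely present, since 1 of 7 was tested and 5 to 7 of them were at 0 in each library. Of 24 factors that define other lineages, 6 were tested and 0 passed, with a median of -0.20.

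Genes that Myog and its relatives are known to activate in new fibres had 8 of 21 higher, 0 lower and a median of 1.14. Examples were Musk, a receptor of the neuromuscular junction (4.93, SE 1.08, adjusted p = 0.0084), Myh8, a perinatal myosin (4.51, SE 0.76, adjusted p = 0.0059), Mymx, needed for fusion (3.72, SE 1.09, adjusted p = 0.0261), and the growth factor Igf2 (2.42, SE 0.58, adjusted p = 0.0121). Musk rose from a mean of 11.2 to 131 normalized counts, and Igf2 from 93.9 ± 48.6 to 454 ± 36.8 (SD, n = 4). Of 18 genes of mature fibres, 5 were higher and 0 lower, with a median of 1.22. The calcium channel subunit Cacna1s had 3.72 (SE 0.96), nebulin (Neb) 2.27 (SE 0.50), the calcium release channel Ryr1 2.0 (SE 0.40) and the troponin Tnnt3 1.55 (SE 0.48). With 22 samples, 10 of 21 and 3 of 18 passed, beside 13.8% of all genes.

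Markers of the other cells in a urethra were read the same way, lower calls beside the 466 of 16287 genes that passed as lower. Synpo2 was the 1 of 8 smooth muscle genes that passed, higher by 3.56 (SE 0.84), with a median of 0.39 for the list. Of 7 endothelial genes, Emcn (-1.37), Tie1 (-1.33) and Cldn5 (-1.18) were lower, with a median of -0.67. Of 8 macrophage genes, C1qb (-2.26), Csf1r (-2.11) and C1qa (-1.74) were lower, with a median of -1.75. Of 8 Schwann cell genes 0 passed, with a median of -1.65, and 0 passed among the 6 neuron genes (-0.10, or 0.11 at the bounds) and the 3 tested genes each of B cells (-0.34) and melanocytes (-0.61).

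In MABsallo-VEGF against saline, 0 genes of the lists described here passed with 24 samples in limma. The medians were 1.22 for the targets in new fibres, 0.64 for mature fibres and -0.62 for macrophages, against 0.04 over all genes and 1.03 over the 7 factors. Igf2 had 2.57 and Myh8 3.14, both with an adjusted p of 0.0753, and Musk 3.21 (adjusted p = 0.132). With 22 samples, 7 of 21 targets and 2 of 18 mature fibre genes were higher, beside 11.4% of all genes.

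**Figure D4:**
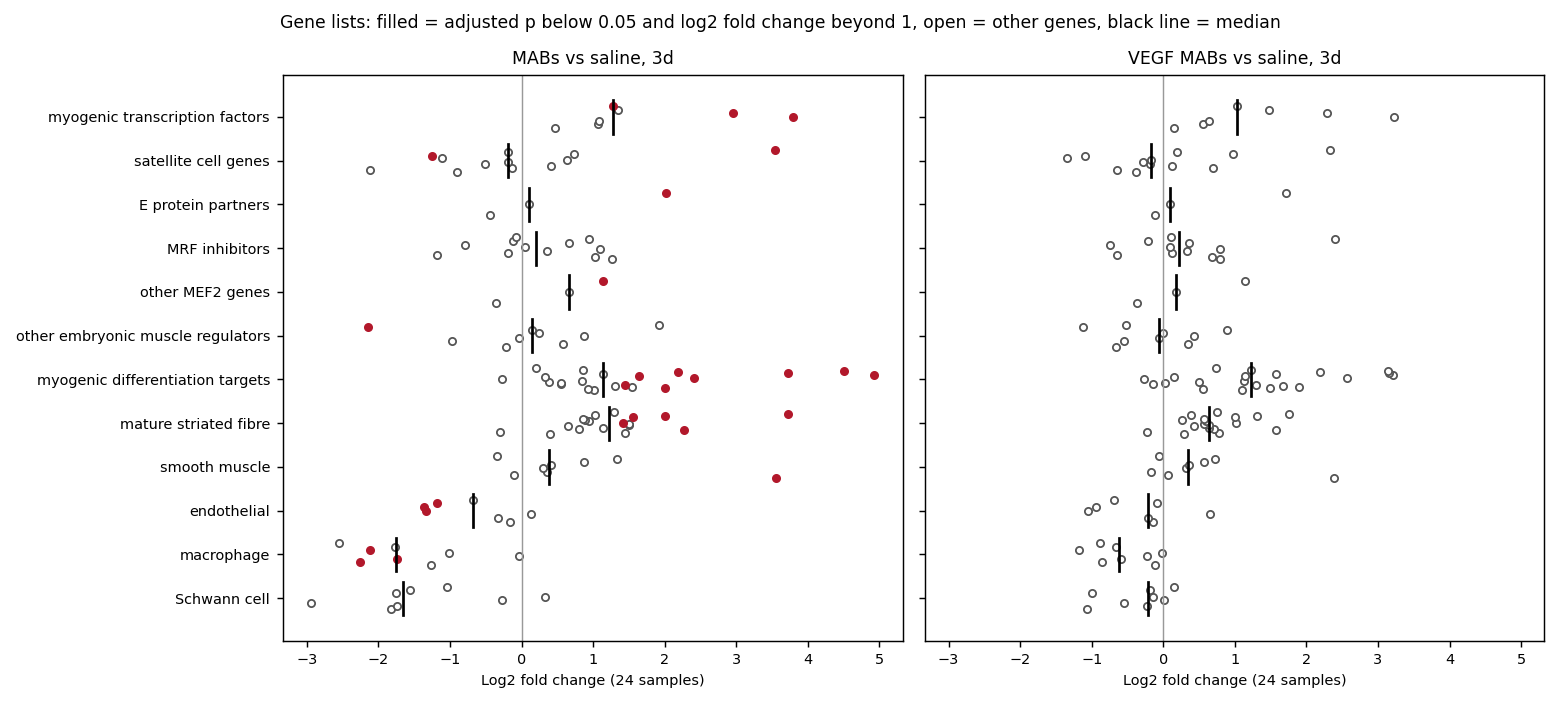
Log2 fold change (horizontal axis, 24 samples) of each tested gene of the 7 factors and of 11 lists (vertical axis), filled where the test was passed, with black lines for medians. For MABsallo the medians of the factors, of targets in new fibres and of mature fibres are 1.28, 1.14 and 1.22 and that of macrophage genes is -1.75, and no gene is filled for MABsallo-VEGF.

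Between 3d and 7d in MABsallo, targets in new fibres had 6 of 21 higher at 3d, with a median of 0.74, against 0.06 over all genes and 2.12 over the 7 factors (2.01 with Pax3 and Pax7 at their bounds). Among these targets 1 was lower, the muscle intermediate filament gene Des (-1.30). Of the mature fibre genes, 3 of 18 were higher at 3d, with a median of 0.20, a share close to the 17.0% of all genes that passed in this direction. Met (3.66), Fgfr4 (1.67), Tcf12 (2.93), Mef2a (1.75) and Hes1 (1.49) were also higher at 3d. No other gene of their lists passed, and those that did not had both signs. Among the satellite cell genes, Ncam1 had 0.89 and Spry1 -0.91, and among the MRF inhibitors Id2 had 1.03 and Snai1 -0.93. The summed satellite cell genes had a mean of 13794 at 3d and 20228 at 7d, with overlap (10974 to 17090 and 15986 to 24228). In MABsallo-VEGF, 4 of 21 targets were higher at 3d, Mymk, the partner of Mymx in fusion, among them (1.80), with a median of 0.60 for the list and 13.1% of all genes passing. The MRF inhibitor Bhlhe41, with at most 21 reads in a library, was at least 6.91-fold higher at 3d in this group. In MABsallo it had 1.42 (adjusted p = 0.409) and did not pass. The summed MRF inhibitors of MABsallo-VEGF overlapped between the days (9493 to 25792 and 9443 to 14137). Between the saline days, Tcf12 (2.23), Tcf4 (1.48), Mef2a (1.24) and Ncam1 (1.48) were higher at 3d, so these passed without injected cells. Of these 4, Tcf4 (0.54, adjusted p = 0.128) and Ncam1 (0.89, adjusted p = 0.088) did not pass between the days in MABsallo.

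Across the 24 samples the factors varied together to different degrees, given as Pearson correlations of log2 values without a test, since depth and group are shared by all points. Myod1 and Myog had a correlation of 0.85, and 0.78 once group means were removed. Myog and Myf6 had 0.67 and 0.83, and the neighbours Myf5 and Myf6 0.62 and 0.72. Mef2c followed Pax7 (0.82) and Pax3 (0.80) more closely, though within groups these were 0.58 and 0.37. Pax3 and Pax7 had 0.70 together and 0.22 within groups, where their few reads leave little to follow.

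Among the 12750 genes whose mean normalized gene count reached 20, the patterns most like Mef2c over the 24 samples were Ryr1 (0.91), Dmd (0.91) and Slc4a3 (0.91). Those most like Pax3 were Myh8 (0.87), Cap2 (0.86) and Dmd (0.86), and those most like Pax7 were Atf2 (0.94), Traf3ip1 (0.93) and Pgpep1 (0.92). Myf6 was closest to Cacnb1 (0.85), Klhl41 (0.83) and Pacsin3 (0.83), 3 genes used in muscle fibres. Myod1 was closest to Ppp1r27 (0.80), Pstpip2 (0.80) and Dclk1 (0.77), and Myog to Dimt1 (0.81), Dclk1 (0.80) and Dusp27 (0.78). Myf5 had the loosest neighbours, Fam92a (0.76), Sav1 (0.69) and AABR07072676.2 (0.68).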

How the data were processed

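The authors prepared whole-urethra RNA as 3ʹ mRNA libraries (QuantSeq), trimmed the reads with fastq-mcf, mapped them to Rnor6.0 with HISAT2, dropped multi-mapped reads, counted with HT-seq Count and divided by DESeq2 size factors. The deposited signal is this normalized gene count for 24 samples, from which 100% of values were recovered as whole reads (tolerance 1e-06). The strand setting of the counting is not given in the sources used here. Because the values are normalized, limma 3.58.1 in R 4.3.3 was used on log2(normalized gene count + 1), with 1 fit of the 6 groups, genes with a mean of at least 2, two-sided tests and Benjamini-Hochberg adjustment over all genes. A fold change on this scale understates that of low genes. DESeq2 1.42.0 and edgeR 4.0.16 were run on the recovered reads as alternatives, beside a larger pseudocount (5), a mean filter of 10 or none, quantile normalization, equal totals, sample quality weights, only the groups compared, thinned reads, 22 samples and leaving out each library in turn. Leaving out further libraries from the 22 was chosen after seeing the data. The comparison of MABsallo with saline at 3d was tested on simulated counts with 200 genes changed by 2 on the log2 scale, where limma recovered 147 with 21 false calls, DESeq2 156 with 22 and edgeR 149 with 7. The changed genes were drawn among those with a mean of at least 20, and all genes had the same simulated dispersion. The simulation thus did not cover Pax3 and Pax7, whose means were 11.5 and 16.4. Its dispersion was also not matched to the other members. In saline at 3d their SD was 84.4% of the mean for Myod1, 78.3% for Myf6, 68.2% for Myog, 49.4% for Myf5 and 45.1% for Mef2c. Recovery at these spreads was not tested. The other tests were not simulated.

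The members and gene lists were chosen with earlier results of these data known. Genes named were the 7 factors, up to 4 genes of a list with the largest changes among those that passed, and the 3 genes most correlated with each factor. Some further names beyond this rule were chosen after their values were seen. Of the lists, 9 genes were not analysed here, and 1 list is not reported here. Replicates of every group differed beyond sampling noise (chi-square divided by its degrees of freedom, 9.78 to 133 in 36 pairs). Intervals and limits of detection cover the spread of samples and counting error, respectively. Promoters came from RefSeq (GRCr8), and no positions in Rnor6.0 are given.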

Additional observations from a re-analysis of the deposited data

Results flagged for a closer look

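Over 41 sets of 4 samples, a gene in a group each, 5 had a sample whose gap to the nearest other exceeded Dixon's critical share of the range, where chance gives about 1 in 20 for values that are not tied. A single sample above a group at 0 exceeds it by construction, which held for 3 of the 5, so their number is not read against chance. Myog in MABsallo-VEGF at 3d had 5084 normalized counts in replicate 2, and 2239 in the next highest sample. Myod1 in saline at 7d had 206.6 in replicate 2, below the next lowest, 292. The other 3 were single samples above groups at 0, Pax3 in MABsallo replicate 9 of 7d with 6.622 (2 reads), Pax7 in the same library with 3.311 (1 read) and Pax7 in MABsallo-VEGF replicate 11 of 7d with 3.103 (1 read).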

How the results depend on the processing

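Of the counts of factors that passed, those of MABsallo at 3d against 7d (5) and of MABsallo-VEGF against MABsallo at 3d, the saline days, the 7d comparisons and the MABsallo-VEGF interaction (0 each) were the same under every alternative run. For MABsallo against saline at 3d, 3 became 1 with edgeR or equal totals (Pax3) and 0 with only the groups compared, and Pax7 was lost in 6 of 11 settings, and ranged from 0 to 4 when 1 library was left out. For MABsallo-VEGF against saline at 3d, 0 became 1 with sample quality weights (Pax3), 1 with thinned reads (Pax7) and 3 with 22 samples, and ranged from 0 to 1 without 1 library. For MABsallo-VEGF at 3d against 7d, 2 became 4 with a pseudocount of 5, with quality weights and with 22 samples, and 3 with a mean filter of 10, DESeq2, quantile normalization, only the groups compared and thinned reads (Mef2c in addition), and ranged from 1 (without replicate 2 of 3d, or 7 or 12 of 7d) to 4 (without replicate 4 of 3d). The MABsallo interaction gave 1 (Myog) with quality weights. Within the 22 samples the counts without 1 more library ranged from 0 to 3 for both groups against saline at 3d, and from 1 to 4 for MABsallo-VEGF at 3d against 7d. The cause of these shifts was not tested.

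Directions turned only for values that did not pass. Myf5 had -0.11 (quantile) in MABsallo against saline at 3d, -0.051 (edgeR), -0.34 (quantile), -0.086 (equal totals), -0.061 (22 samples) and -0.054 (thinned) in MABsallo-VEGF against saline at 3d, -0.28 (quantile) in MABsallo between days, -0.026 (DESeq2), -0.022 (edgeR) and -0.11 (quantile) between saline days, -0.31 (weights) and -0.59 (thinned) in MABsallo against saline at 7d, and -0.18 (quantile) in the MABsallo interaction. Between MABsallo-VEGF and MABsallo at 3d, Pax7 had 0.076 with 22 samples and Myog -0.094 with weights. Myod1 had -0.10 (weights) between saline days and 0.29 (both DESeq2 and edgeR) in MABsallo-VEGF against saline at 7d, and Myf6 0.17 (weights) between the cell groups at 7d.

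Without 1 library, the values that changed sign ranged, for Myf5, from -0.023 to 1.02 and from -0.075 to 0.38 (MABsallo and MABsallo-VEGF against saline at 3d), from -0.87 to 0.17 (between the cell groups at 3d), from -0.19 to 0.84 (saline days), from -0.31 to 0.71 (MABsallo against saline at 7d) and from -0.24 to 0.87 (MABsallo interaction, with -0.21 without MABsallo replicate 7.2 of 7d). Between the cell groups at 3d, Pax7 ranged from -1.23 to 0.076 and Myog from -0.19 to 0.27. Myod1 ranged from -0.39 to 0.39 (saline days) and from -0.56 to 0.30 (MABsallo-VEGF against saline at 7d), and Mef2c from -0.0050 to 0.62 (MABsallo against saline at 7d). Between the cell groups at 7d, Myf6 ranged from -0.40 to 0.31 (-0.33 without MABsallo-VEGF replicate 11) and Mef2c from -0.015 (without MABsallo replicate 7.2) to 0.52.

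Equal totals moved the median of all genes by -0.25 (MABsallo) and -0.22 (MABsallo-VEGF) against saline at 3d, and quantile normalization by -0.20 and -0.14. Between the days these shifts were -0.20 and -0.15, and -0.27 and -0.26. MABsallo and MABsallo-VEGF at 3d share the replicate numbers 1 to 4, whose deviations correlated with 0.34, 0.24, 0.093 and 0.35, against -0.32 to 0.34 (median -0.16) in the 12 pairs of unlike numbers. Of the 8 samples, 5 correlated best with their own number. As 1 pair stayed below 0.1 and the labels name nothing shared, the numbers were not taken as pairs. A fit with the replicate number as a block called 0 factors, as did the fit without it. Pax3 and Pax7 are limited by depth, with at most 10 and 19 reads in 1 library.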

Other observations

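Of the MABsallo-VEGF samples of 7d, replicates 6 and 7 have recovery in their titles and replicates 11 and 12 do not. Myog had 969 and 685 normalized counts with the word and 1437 and 520.1 without it. Myod1 had 131 and 254 against 776 and 192, and Mef2c 4647 and 6247 against 6045 and 4877. Pax3 and Pax7 had at most 2 reads in any of the 4. With 2 samples on each side, no test was made.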
